A study of Mus musculus with 8 samples.

Results

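The genes described here are 34 targets and partners of the transcription factor ATF4, the effector of the integrated stress response. They were chosen by symbol, with earlier results of these data known. Of the 12 tRNA synthetases among them, 11 were matched under the older name without the final 1. Of the 34 genes, 33 had a named probe (Pycr1 had none), with 41 probes in all. A test was possible for 32 of them, out of 14601 named genes tested on the arrays. Fgf21 was not tested because its probe stood well above background on too few arrays.

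The samples were mouse morulae at E3.0 from in vitro fertilisation, injected with siRNA and grown in KSOM medium at 37.5 °C. In the siControl group the embryos received control siRNA, and in the P150KD group siRNA against P150. This protein, the product of Chaf1a, is the largest part of CAF-1, a chaperone that assembles histones onto newly made DNA. There were 3 siControl and 5 P150KD arrays, each with the RNA of 10 pooled embryos after 2 rounds of linear amplification and labelling of an equal mass. Levels are therefore relative within an array, and the RNA content of an embryo was not measured. Since each array pools whole embryos, fewer cells of a type and less RNA per cell cannot be told apart. The labels call the arrays replicates without naming separate collections, so p-values measure only the spread between these arrays, which may be technical.

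In the integrated stress response, the kinases PERK, GCN2, PKR and HRI phosphorylate the initiation factor eIF2. Most translation then slows while the Atf4 transcript is translated more efficiently, so the ATF4 protein can accumulate with little change of its RNA. ATF4 pairs with C/EBP proteins on composite DNA elements and switches on genes for amino acid supply, tRNA charging, redox balance, feedback control and, when stress persists, cell death. Protein was not measured on these arrays.

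All signals below are log2 values relative to the 75th percentile of their own array, so a value of 0 is the level of that percentile. A gene is called risen or fallen where limma's moderated test, two-sided, gave an adjusted p under 0.05 after Benjamini-Hochberg adjustment over all 30348 tested probes. Where a gene had several tested probes, the one with the highest mean signal stands for it. Differences are P150KD minus siControl and carry the standard error (SE) of the fit, and means carry the SD.

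The siRNA target Chaf1a read 2.40, 2.09 and 2.27 on the siControl arrays and -1.47, 0.52, -0.48, -1.45 and -0.23 on the P150KD arrays, a difference of -2.88 (SE 0.48, limma adjusted p = 0.0107). On 50.1% to 55.9% of the spots of an array the signal was well above background, and 0 spots were saturated. The 12 morula markers, Pou5f1, Nanog and Cdx2 among them, were all tested. All 12 differences lay below 0, while 38.7% of all 14601 genes lay above 0. Of the 12, 4 fell (33.3%, against 10.5% of all genes), Krt18 by 3.09, Gata3 by 1.75, Tead4 by 0.87 and Zfp42 by 0.65. With quantile normalization and with the housekeeping scale 1 fell, and on leaving out any 1 of the controls 1 fell. Their summed linear signal lay between 995 and 1064 times the 75th percentile on siControl arrays and between 588 and 818 times on P150KD arrays. Over all 14601 genes the median difference was -0.24. The 12 housekeeping genes used for scaling below also had 0 differences above 0, and 4 of them fell (33.3%). Their median was -0.30, beside -0.63 for the morula markers. These counts were therefore not particular to the morula markers.

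The promoter sequences of these genes show which of them carry an ATF4-type element close to the start site. ATF4 and C/EBP partners bind a composite element whose core was searched as TGATGNAA, on both strands, in the RefSeq promoter windows of the build GRCm38.p6, from 250 bases before to 50 bases after each start site. The core was present in 3.97% of 32851 such windows and for 4.51% of 27025 genes. A window was held for 29 of the 34 ATF4 target genes; Cth, Cars1, Lars1, Nars1 and Wars1 had no entry. The core was found in 12 of the 29 (41.4%): Nupr1, Trib3, Chac1, Vldlr, Fgf21, Asns, Pycr1, Aars1, Gars1, Iars1, Tars1 and Yars1. The form TGATGCAA was found in 9 of the 29, against 1.03% of all genes. Because the 34 genes were chosen as ATF4 targets and partners, higher shares than over all genes are no independent test of the list.

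The sequences of 4 genes that rose in P150KD morulae are given first, each read in the direction of the gene, with the element core in capitals. In Chac1, Nupr1 and Trib3 the core lies on the opposite strand, so that it reads as its reverse complement. Chac1 lies at chr2:119351003-119351102 on the plus strand, Nupr1 at chr7:126625527-126625626, Asns at chr6:7693210-7693309 and Trib3 at chr2:152344028-152344057, the last 3 on the minus strand.
Chac1: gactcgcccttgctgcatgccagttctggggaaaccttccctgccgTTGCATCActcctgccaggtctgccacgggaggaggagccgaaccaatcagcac
Nupr1: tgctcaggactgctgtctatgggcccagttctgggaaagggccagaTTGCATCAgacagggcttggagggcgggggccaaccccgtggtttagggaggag
Asns: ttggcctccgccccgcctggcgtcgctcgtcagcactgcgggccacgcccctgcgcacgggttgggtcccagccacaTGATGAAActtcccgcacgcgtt
Trib3: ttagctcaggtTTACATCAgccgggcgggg
The first base of the core stood 193 bases before the start site in Chac1, 110 before it in Nupr1 and 23 before it in Asns, and at position 15 after the start in Trib3. The Chac1 window also held the variant core TGACGNAA, found for 1.83% of all genes and for no other ATF4 target gene with a window. Chac1 and Nupr1 share TGATGCAA, while Asns has TGATGAAA and Trib3 TGATGTAA.

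The second set is shown because these tRNA synthetase genes carry the same core and were not called. Aars1 lies at chr8:111033684-111033783, Gars1 at chr6:55037901-55038000, Iars1 at chr13:49682126-49682155 and Yars1 at chr4:129189895-129189924, all on the plus strand, and Tars1 at chr15:11399659-11399758 on the minus strand.
Aars1: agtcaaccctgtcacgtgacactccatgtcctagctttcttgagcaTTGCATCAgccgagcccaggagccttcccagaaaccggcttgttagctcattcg
Gars1: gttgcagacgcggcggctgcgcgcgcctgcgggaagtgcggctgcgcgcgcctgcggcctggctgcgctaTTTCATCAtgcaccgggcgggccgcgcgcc
Tars1: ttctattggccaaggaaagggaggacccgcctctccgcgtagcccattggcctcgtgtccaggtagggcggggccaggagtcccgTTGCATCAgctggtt
Iars1: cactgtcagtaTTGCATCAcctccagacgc
Yars1: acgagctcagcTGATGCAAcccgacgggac
Among the 7 risen genes with a window the core was present in 4, and among the 22 other ATF4 target genes with a window it was present in 8. The risen genes Atf5, Stc2 and Mthfd2 had no match in this window. The core was present in 5 of the 8 tRNA synthetases with a window, of which none was called. The longer endoplasmic reticulum stress response element, searched on both strands, was found in 0 of the 29 windows and for 0.137% of all genes. A match is a description of letters and not a measured binding site.

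**Figure D1:**
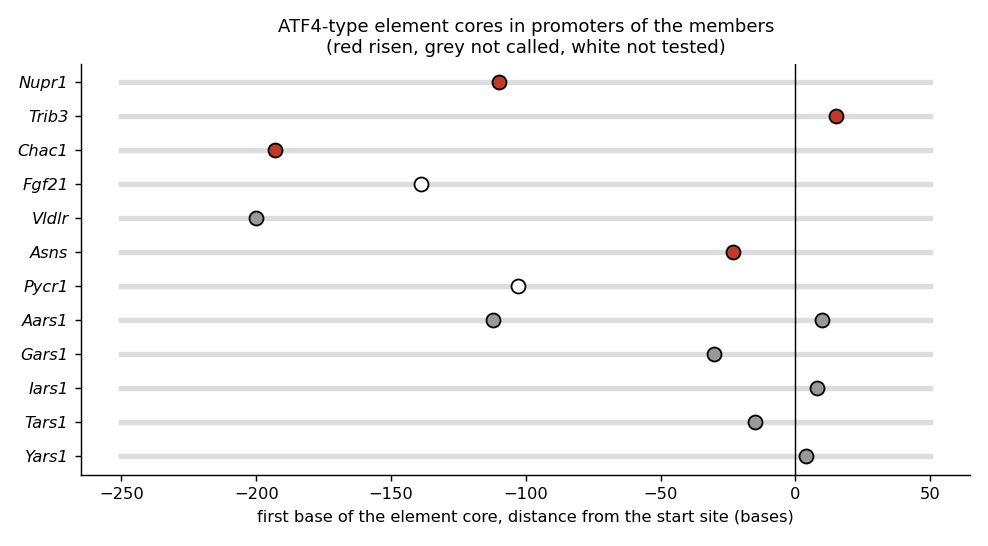
Positions of the first base of the TGATGNAA core (horizontal axis, bases from the start site) in the 12 ATF4 target genes that hold it (rows), with the searched window as a grey bar; red points are genes that rose, grey points genes not called and white points genes not tested. The core lies within the window on either side of the start site, for risen genes and for tRNA synthetases alike.

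Of the 32 tested ATF4 target genes, 8 rose in P150KD morulae, 1 fell and 23 were not called. The risen genes were Chac1, Nupr1, Stc2, Trib3, Atf5, Asns, Mthfd2 and Cth, and the fallen gene was Psph. Over all named genes tested, 6.65% rose, 10.5% fell and 17.1% changed in either direction. The 8 risen make up 25% of the tested ATF4 target genes and the 1 fallen 3.12%. Because the list was chosen with earlier results of these data known, these shares describe it and are no independent test of it. Of the 8, Stc2 reached the 3 arrays above background needed for a test only through the P150KD arrays, where it was high. With only probes above background on all 8 arrays, Stc2 was not tested and 9 of 29 rose (31%), against 8.25% of all genes. The difference was above 0 for 18 and below 0 for 14 of the 32, with a median of 0.29 (0.17 over the genes above background on all 8 arrays), while it was above 0 for 38.7% of all genes. In 11 of the 32 every P150KD array lay above every siControl array, against 10.2% of all genes. In 4 every P150KD array lay below, against 21.8% of all genes.

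The roles differed in these counts. Of the 7 regulators 3 rose and 0 fell by limma's adjusted p. Of the 4 tested effectors and secreted factors 2 rose, 1 of them Stc2, which was tested only through its P150KD arrays. With only probes above background on all 8 arrays, 1 of 2 effectors rose. Of the 9 tested amino acid and one-carbon enzymes 3 rose and 1 fell. Of the 12 tRNA synthetases, 0 rose and 0 fell (unadjusted p under 0.05 in 1 with a higher and 2 with a lower signal). The median difference was 0.84 for the regulators, 2.85 for the effectors, 0.79 for the enzymes and -0.19 for the synthetases. The effector median is the midpoint of 4 genes, of which 2 lie below 0, and was 1.73 with normexp and 1.04 with no filter on dim probes; the enzyme median was 0.46 with normexp and 0.28 without siControl replicate 3. With 6.65% of all genes risen, 0 of 12 synthetases is near the background. No test of one role against another was made.

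**Figure D2:**
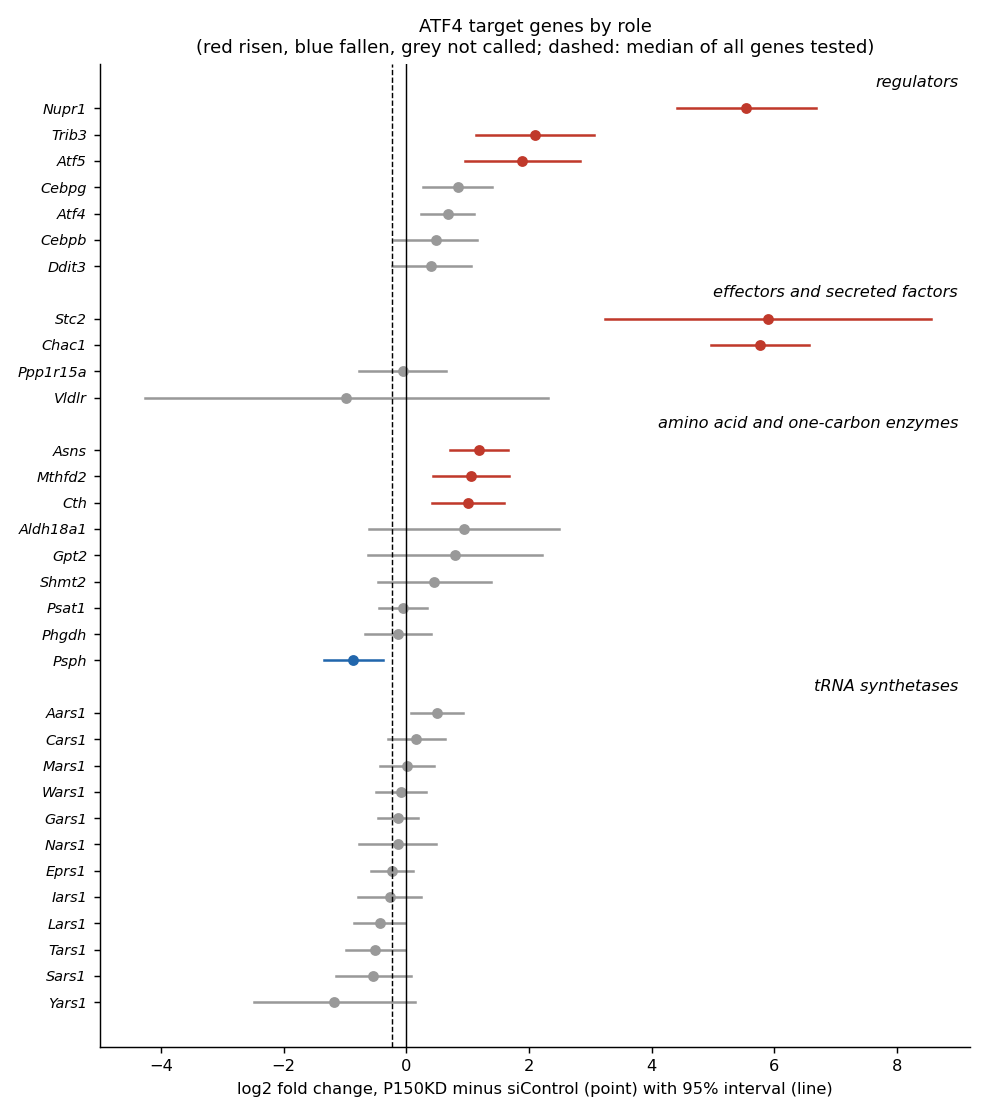
Difference between P150KD and siControl (horizontal axis, log2) for the 32 tested ATF4 target genes (rows, by role), with the 95% interval of the fit; red is risen, blue fallen and grey not called, and the dashed line is the median of all genes tested, -0.24. Chac1, Nupr1 and Stc2 stand at 5.77, 5.54 and 5.89, and the tRNA synthetases lie between -1.17 and 0.50.

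Atf4 itself, the transcription factor at the centre of the response, was not called. Its brighter probe read 7.04, 6.91 and 6.89 on siControl arrays and 7.94, 7.73, 7.48, 7.63 and 7.35 on P150KD arrays. Every P150KD array lay above every siControl array. The difference was 0.68, a 1.60-fold higher level (SE 0.18, 95% interval 0.25 to 1.11, limma adjusted p = 0.0501). The dimmer probe read 0.36, 0.68 and 0.26 against 1.33, 0.62, 0.90, -0.21 and 0.54, and there the groups overlapped (difference 0.20, SE 0.34, limma adjusted p = 0.726). Atf4 was called in 5 of 18 alternatives, and in 1 of the 8 that left out an array. The limma adjusted p of the brighter probe was 0.0106 after quantile normalization, 0.0039 after scaling to housekeeping genes and 0.0487 without P150KD replicate 5. It was 0.107 with normexp, and 0.247 for the mean of the 2 probes. The call of Atf4 thus turned on the processing and on 1 array.

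Atf5, a close relative of ATF4 that is itself translated preferentially under stress, read 3.71, 3.33 and 1.92 on siControl arrays and 5.01, 4.65, 4.87, 5.24 and 4.63 on P150KD arrays. The groups did not overlap, and siControl replicate 3 was the lowest array. Atf5 rose 3.72-fold (difference 1.89, SE 0.40, limma adjusted p = 0.0232), with an adjusted p of 0.0521 without siControl replicate 2, 0.0520 without P150KD replicate 1 and 0.0523 without P150KD replicate 4. Trib3, a pseudokinase that binds ATF4 and dampens its activity, read 2.16, 2.69 and 0.79 against 4.23, 3.79, 4.10, 4.07 and 3.70. All P150KD arrays lay above all controls, and siControl replicate 3 again read lowest. Trib3 rose 4.28-fold (difference 2.10, SE 0.41, limma adjusted p = 0.0179), and without siControl replicate 1 its adjusted p was 0.0531.

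Nupr1, a small chromatin-associated stress protein, was among the genes with the widest separation. It read -2.11, -0.36 and -2.25 on siControl arrays and 4.49, 4.36, 3.98, 3.60 and 3.41 on P150KD arrays, means of -1.58 ± 1.05 (SD, n = 3) and 3.97 ± 0.47 (SD, n = 5). The lowest P150KD array stood far above siControl replicate 2, the highest control. Nupr1 rose 46.6-fold (difference 5.54, SE 0.49, limma adjusted p = 0.00172), and on leaving out each array in turn the difference ran from 5.21 to 6.15 with an adjusted p of at most 0.00867.

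The other regulators were not called. Cebpg, a C/EBP protein that dimerises with ATF4, read 2.16, 2.50 and 1.87 against 3.28, 2.99, 2.67, 3.34 and 2.79, without overlap (difference 0.84, SE 0.24, limma adjusted p = 0.0587). Cebpb, another C/EBP partner, overlapped between the groups, with siControl arrays between 2.66 and 3.21 and P150KD arrays between 2.96 and 3.91 (difference 0.48, limma adjusted p = 0.307). Ddit3, which encodes CHOP, the factor associated with cell death under lasting stress, read -1.60, -1.42 and -1.64 against -0.89, -1.71, -1.53, -0.77 and -0.83. P150KD replicates 2 and 3 lay among or below the controls and the other 3 above them. The difference for Ddit3 was 0.41 (SE 0.27, 95% interval -0.23 to 1.05, limma adjusted p = 0.354), so its interval ended well below the differences measured for Chac1 and Nupr1.

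**Figure D3:**
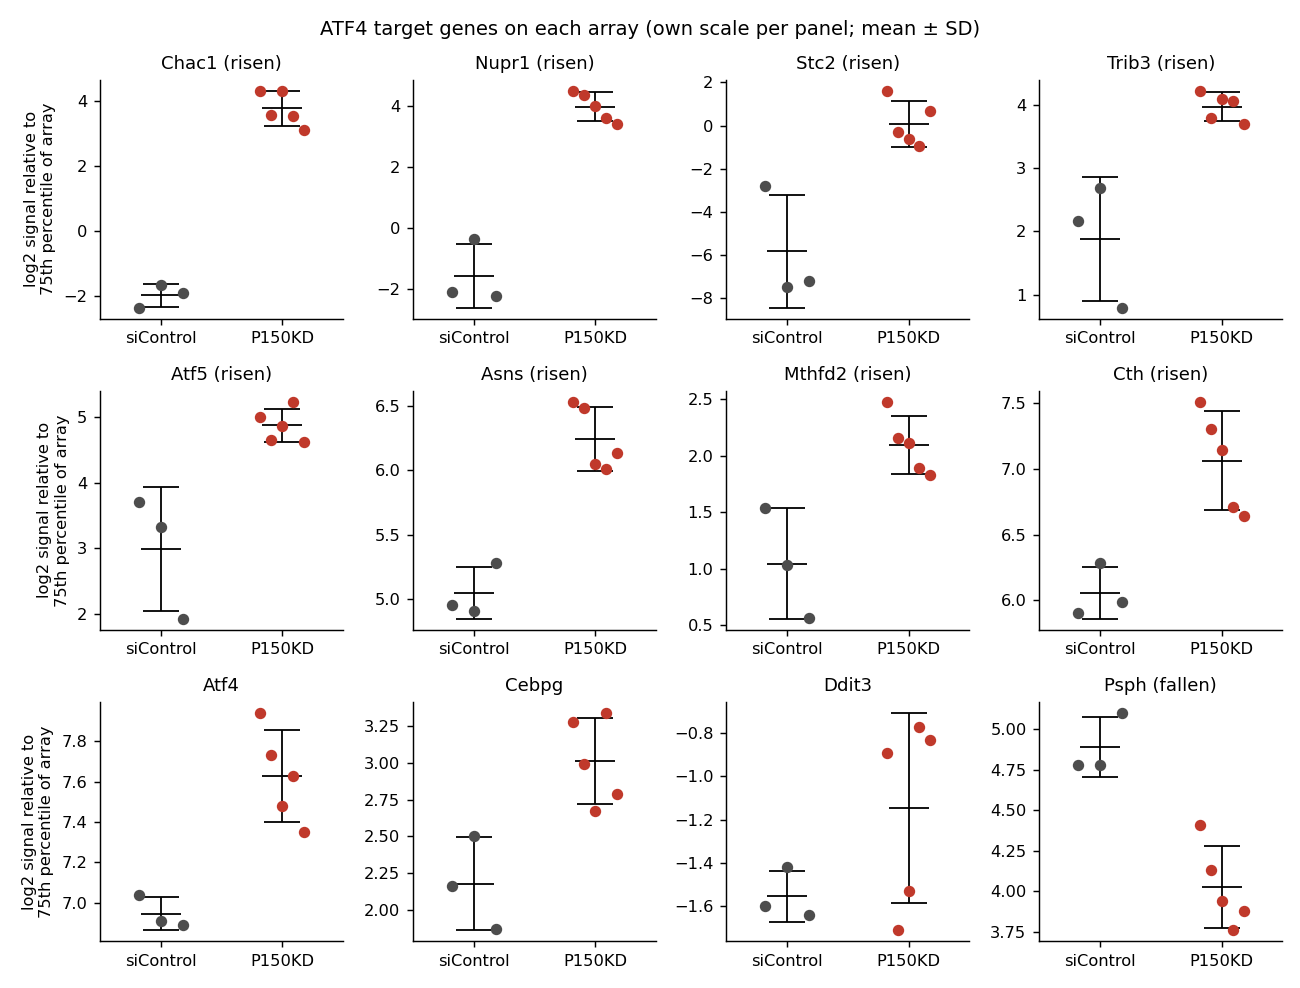
Log2 signal minus that of the array's 75th percentile (vertical axis, own scale in each panel) for 12 ATF4 target genes, with 1 point per array, the 3 siControl arrays in grey and the 5 P150KD arrays in red, and the mean ± SD in black. The groups do not overlap in any panel except Ddit3; in Psph the P150KD arrays lie below the controls, and Atf4 and Cebpg were not called.

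Among the effectors, Chac1 had the smallest p of the 32. It encodes the enzyme that degrades glutathione in the cytosol and is a classical late target of the ATF4 arm. Chac1 read -2.37, -1.68 and -1.92 on siControl arrays and 4.33, 3.58, 4.33, 3.56 and 3.10 on P150KD arrays, means of -1.99 ± 0.35 (SD, n = 3) and 3.78 ± 0.54 (SD, n = 5). All 5 P150KD arrays lay far above the controls, and the spread within either group was small beside the gap. Chac1 rose 54.5-fold (difference 5.77, SE 0.34, limma adjusted p = 4.26e-04). Leaving out each array in turn gave differences from 5.58 to 5.94, with an adjusted p of at most 0.00342.

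Stc2, a secreted glycoprotein induced by stress of the endoplasmic reticulum, read -2.81, -7.45 and -7.20 on siControl arrays and 1.62, -0.31, -0.64, -0.96 and 0.66 on P150KD arrays. Its probe was well above background on 1 of 3 siControl arrays and on 5 of 5 P150KD arrays, so the control mean rests on readings near the detection limit. A test needed at least 3 such arrays, so Stc2 was tested only because it was high on P150KD arrays. Its call therefore cannot count as independent support for a rise of the list. Stc2 rose (difference 5.89, SE 1.14, 95% interval 3.23 to 8.55, limma adjusted p = 0.0173). With normexp background correction the difference was 3.46, and without siControl replicate 2 or 3 the adjusted p was 0.0597 or 0.0628. Fgf21, a stress-induced hormone, was well above background on 0 of 3 siControl arrays and on 2 of 5 P150KD arrays, where it read -3.89 and -3.54.

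The remaining effectors did not pass the test. Ppp1r15a encodes GADD34, the phosphatase subunit that reverses eIF2 phosphorylation, and its siControl arrays lay between 1.86 and 2.35 and its P150KD arrays between 1.30 and 2.50. The groups overlapped fully (difference -0.06, 95% interval -0.77 to 0.65, limma adjusted p = 0.911). Vldlr, a lipoprotein receptor, was well above background on 2 of 3 siControl and 4 of 5 P150KD arrays, and its interval of -4.27 to 2.31 leaves its direction undetermined at this signal.

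Of the enzymes that supply amino acids and one-carbon units, Asns, asparagine synthetase and the textbook target of amino acid limitation, read 4.96, 4.91 and 5.28 on siControl arrays. On P150KD arrays it read 6.53, 6.48, 6.05, 6.01 and 6.13, all above every control. Asns rose 2.29-fold (difference 1.19, SE 0.20, limma adjusted p = 0.0116), and without siControl replicate 1 its adjusted p was 0.0524. Mthfd2, the mitochondrial enzyme that oxidises methylene-tetrahydrofolate, read 1.54, 1.03 and 0.56 against 2.48, 2.16, 2.11, 1.89 and 1.83. The groups did not overlap, and Mthfd2 rose 2.07-fold (difference 1.05, SE 0.27, limma adjusted p = 0.0407). This call was kept on leaving out siControl replicate 1 (adjusted p = 0.0438) and lost on leaving out any other single array (adjusted p from 0.0556 to 0.116).

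Cth, cystathionine gamma-lyase, makes cysteine from cystathionine and had 2 probes that both rose. The brighter read 5.90, 6.28 and 5.99 on siControl arrays and 7.51, 7.30, 7.14, 6.71 and 6.64 on P150KD arrays, and the other 4.75, 5.22 and 4.82 against 6.68, 6.17, 6.11, 5.93 and 6.02. On both probes every P150KD array lay above every control. Cth rose 2.004-fold on the brighter probe (difference 1.00, SE 0.25, limma adjusted p = 0.0400) and by 1.25 on the other (SE 0.23, limma adjusted p = 0.0145). On the brighter probe the call was kept without P150KD replicate 4 or 5 (adjusted p = 0.0498 and 0.0392) and lost without any other single array (adjusted p from 0.0684 to 0.131).

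Psph, which catalyses the last step of serine synthesis, was the 1 ATF4 target gene that fell. Its brighter probe read 4.78, 4.78 and 5.10 on siControl arrays and 4.41, 4.13, 3.94, 3.76 and 3.88 on P150KD arrays, all below every control. Psph fell by 0.86 on the log2 scale (SE 0.20, limma adjusted p = 0.0322), and its second probe fell by 0.81 (limma adjusted p = 0.0246). The fall of the brighter probe was not called after quantile normalization (-0.62, adjusted p = 0.0803) or scaling to housekeeping genes (-0.29, adjusted p = 0.306). Leaving out P150KD replicate 1 kept the call (adjusted p = 0.0320), and leaving out any other single array lost it (adjusted p from 0.0501 to 0.101).

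The other enzymes of serine synthesis were not called. Phgdh, the first enzyme of the route, lay between 5.61 and 5.79 on siControl arrays and between 5.10 and 5.94 on P150KD arrays, and its 2 probes differed by -0.13 and -0.05 between the groups. Psat1, the aminotransferase of the middle step, had probes that disagreed. The brighter read 8.69, 8.75 and 8.91 against 8.79, 8.88, 8.79, 8.76 and 8.43, with overlapping groups (difference -0.05, 95% interval -0.45 to 0.34, limma adjusted p = 0.855). The dimmer read 2.07, 2.93 and 2.40 against 3.25, 3.41, 3.20, 2.79 and 3.07, where only P150KD replicate 4 fell below the highest control (difference 0.68, limma adjusted p = 0.111). Of the 3 enzymes that turn 3-phosphoglycerate into serine, 0 rose by limma's adjusted p. With 6.65% of all genes risen, 0 of 3 is near the background. The unadjusted p was under 0.05 for a higher signal in the dimmer Psat1 probe.

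Shmt2, the mitochondrial enzyme that splits serine into glycine and a one-carbon unit, gave overlapping groups, with siControl arrays between 0.89 and 1.43 and P150KD arrays between 1.09 and 2.48 (difference 0.46, limma adjusted p = 0.476). P150KD replicates 4 and 5 read 2.36 and 2.48, and the other 3 P150KD arrays lay at or below 1.36. Gpt2, the mitochondrial alanine aminotransferase, ran from -0.32 to 2.18 on siControl and from 0.96 to 2.67 on P150KD arrays (difference 0.79, limma adjusted p = 0.416). Aldh18a1, which starts proline synthesis, was well above background on 1 of 3 siControl and 2 of 5 P150KD arrays (difference 0.94, limma adjusted p = 0.376).

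The 12 tRNA synthetases, which charge tRNAs with their amino acids and are ATF4 targets in many cell types, were all tested and none was called (limma adjusted p from 0.1095 to 0.974). Their differences ran from -1.17 to 0.50, with 3 above 0 and 9 below. Aars1, alanyl-tRNA synthetase, stood highest, at 4.88, 4.96 and 5.16 on siControl arrays and 5.63, 5.53, 5.26, 5.76 and 5.35 on P150KD arrays. It was the 1 synthetase whose P150KD arrays all lay above the controls (difference 0.50, SE 0.18, limma adjusted p = 0.1095). With 10.2% of all genes separated in this way, 1 of 12 is near the background. A second Aars1 probe was well above background on 0 arrays.

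Eprs1, Gars1 and Lars1, for glutamyl-prolyl, glycyl and leucyl tRNA, lay below every control on all P150KD arrays, by -0.23, -0.13 and -0.43. These are 3 of the 12, near the 21.8% of all genes with such a separation, and the median of all genes was -0.24. Yars1, tyrosyl-tRNA synthetase, had the lowest value of the group, -1.17, with siControl arrays between -0.37 and 1.11 and P150KD arrays between -1.74 and 0.43 (95% interval -2.48 to 0.14). The others were Sars1 at -0.54, Tars1 at -0.51, Iars1 at -0.27, Nars1 at -0.14, Wars1 at -0.09, Mars1 at 0.01 and Cars1 at 0.17. No upper 95% bound in the group passed 0.93 on the log2 scale. The differences of the 8 risen genes began at 1.00, but their 95% intervals reached down to 0.41, so intervals of the 2 sets overlapped. With quantile normalization the synthetase median was 0.05 and Aars1 was called, where the median of all genes was -0.12. With scaling to housekeeping genes the synthetase median was 0.39 beside 0.34 for all genes, and with the 75th percentile -0.19 beside -0.24. The housekeeping scale subtracts 1 value per array from every gene, so it moves all differences by the same amount by construction.

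The rest of the pathway was read from related gene lists. Of 16 genes for the eIF2 kinases and the eIF2 cycle, 0 rose and 1 fell by limma's adjusted p. Over all genes 6.65% rose and 10.5% fell, so both counts are near the background. Limma's unadjusted p was under 0.05 in 0 with a higher and 3 with a lower signal. The median was -0.22, or -0.40 without siControl replicate 1 and -0.33 without siControl replicate 2. It was 0.01 with quantile normalization and 0.35 with the housekeeping scale. The kinase differences were 0.46 for Eif2ak1 (HRI, limma adjusted p = 0.315), -1.29 for Eif2ak2 (PKR, adjusted p = 0.572), 0.04 for Eif2ak3 (PERK, adjusted p = 0.907) and -0.20 for Eif2ak4 (GCN2, adjusted p = 0.782). The Eif2ak2 probe was well above background on only 2 of 3 siControl and 1 of 5 P150KD arrays. Its interval of the fit, -4.54 to 1.97, leaves the direction of Eif2ak2 undetermined at this signal. The gene that fell was Eif2b3, a subunit of the exchange factor eIF2B, by 0.89 (limma adjusted p = 0.0404). This call was lost after quantile normalization (-0.65, adjusted p = 0.0974), after scaling to housekeeping genes (-0.31, adjusted p = 0.413) and without any single array (adjusted p from 0.0595 to 0.118). Phosphorylation, the step that activates these kinases, was not measured.

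A list of 17 further ATF4 targets, of which 16 were tested, held 4 risen and 2 fallen genes (6.65% and 10.5% of all genes), with a median of 0.51, or 0.25 without siControl replicate 3 and 0.21 with only probes above background on all 8 arrays. Gdf15, a stress hormone, read -1.14, -1.36 and -2.17 on siControl arrays and 1.22, 1.48, 1.46, 0.74 and 0.83 on P150KD arrays, without overlap, and rose 6.50-fold (difference 2.70, SE 0.31, limma adjusted p = 0.00361). Herpud1, a factor of protein degradation at the endoplasmic reticulum, rose by 1.83 (limma adjusted p = 0.00896). Ddit4, an inhibitor of mTORC1 signalling, rose by 1.56 (limma adjusted p = 0.00427), and Slc7a1, a transporter of cationic amino acids, by 1.08 (limma adjusted p = 0.0113, or 0.0520 without siControl replicate 1). Gdf15 and Ddit4 are also known targets of p53.

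The fallen genes of that list were picked out after their values were seen. Jdp2, a repressor of the AP-1 family, fell by 2.28 (limma adjusted p = 0.0237), and Slc1a5, a glutamine transporter, by 1.17 (limma adjusted p = 0.0424). After scaling to housekeeping genes neither was called (adjusted p = 0.0595 and 0.269), nor was Slc1a5 after quantile normalization (adjusted p = 0.0838). Jdp2 lost its call without any 1 control or P150KD replicate 1 (adjusted p from 0.0516 to 0.0818), and Slc1a5 kept its call without P150KD replicate 3 or 5 and lost it without any other single array (adjusted p from 0.0678 to 0.118).

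Of the 8 other cytosolic ones 2 fell, Qars1 by 0.95 and Farsb by 0.92, and of the 17 mitochondrial ones 3 fell, Rars2 by 1.19, Fars2 by 2.43 and Pars2 by 1.24, while 0 of the 25 rose by limma's adjusted p (unadjusted p under 0.05 for a higher signal in 0 of them). Over all genes 6.65% rose and 10.5% fell, while 25% of these cytosolic and 17.6% of the mitochondrial genes fell. Limma's unadjusted p was under 0.05 for a lower signal in 2 of the 8 and 8 of the 17. Every P150KD array lay below every control in 2 of the 8 and 8 of the 17, against 21.8% of all genes. The first count is near that share and the second is above it. With only probes above background on all 8 arrays, 7 of 16 mitochondrial genes fell (43.8%), against 18.3% of all genes. After scaling to housekeeping genes none of these falls but that of Fars2 was called (adjusted p from 0.0888 to 0.207 for the other 4). Calls were also lost without siControl replicate 1 (Farsb, adjusted p = 0.0527, and Fars2, 0.0561), siControl replicate 2 (Pars2, 0.0724), siControl replicate 3 (Fars2, 0.0515, and Pars2, 0.0796) or P150KD replicate 1 (Pars2, 0.0542).

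Of 12 tested enzymes of folate and glycine metabolism outside the 34 genes, 1 rose and 2 fell. These are 8.33% and 16.7% of the list, against 6.65% and 10.5% of all genes, so such small counts are near the background. The risen gene was Mthfd1l, the mitochondrial partner of Mthfd2, by 1.16 (limma adjusted p = 0.0340) and by 1.49 on a second probe (limma adjusted p = 0.0462). Its first call was lost without any single array other than siControl replicate 2 (adjusted p from 0.0540 to 0.118). The fallen genes were Sfxn1, a mitochondrial serine carrier, by 1.31, and Shmt1, the cytosolic counterpart of Shmt2, by 0.99. Shmt1 was not called after scaling to housekeeping genes (adjusted p = 0.180) or without siControl replicate 2 (adjusted p = 0.0528), and Sfxn1 not on the mean of its probes (adjusted p = 0.0664).

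The XBP1 and ATF6 arm of the unfolded protein response, which raises chaperones of the endoplasmic reticulum, was read from 19 tested genes, with a median of 0.02, which was -0.04 without siControl replicate 3 and -0.06 without P150KD replicate 1. In it 1 gene rose, the co-chaperone Dnajb9 by 1.74 (limma adjusted p = 0.00882), and 1 fell, Sel1l by 1.03 (limma adjusted p = 0.0441). Each is 5.26% of the list, where 6.65% of all genes rose and 10.5% fell, so the counts are near the background. Sel1l was not called after quantile normalization (adjusted p = 0.0524), after scaling to housekeeping genes (adjusted p = 0.226) or without any single array other than P150KD replicate 1 (adjusted p from 0.0593 to 0.124).

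**Figure D4:**
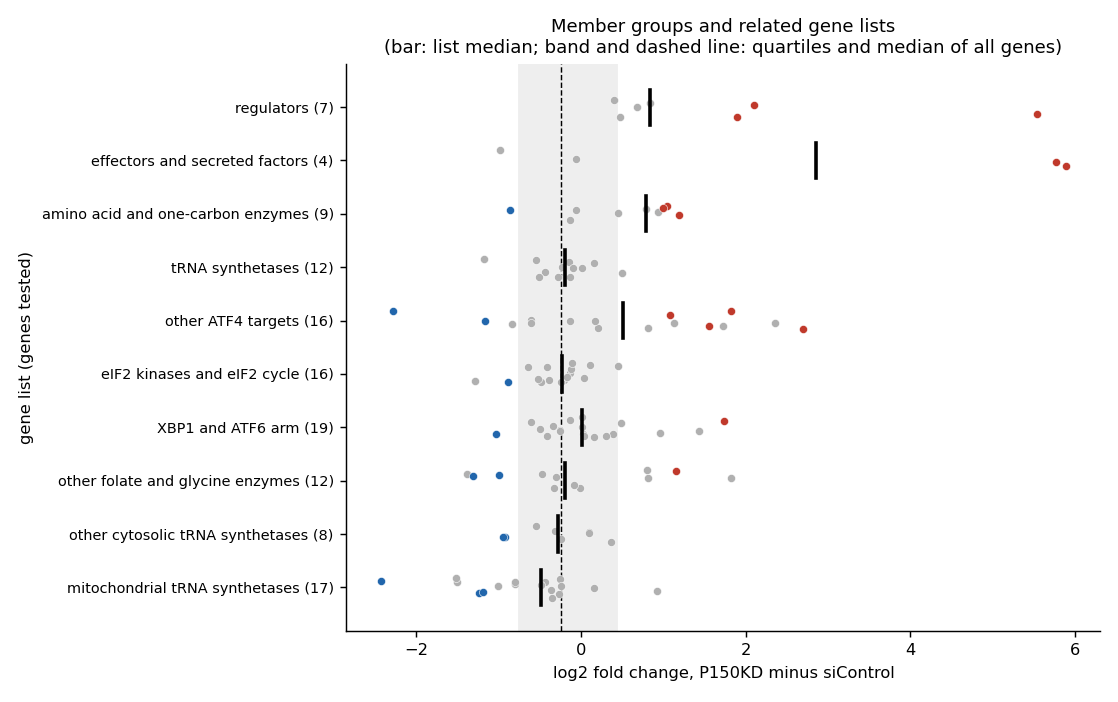
Difference between P150KD and siControl (horizontal axis, log2) for each tested gene of the 4 roles and 6 related lists (rows, number tested in brackets), red for risen, blue for fallen and grey for not called, with the list median as a black bar; the grey band and dashed line are the quartiles and median of all genes tested, -0.75, 0.44 and -0.24. The medians of the regulators, effectors, amino acid and one-carbon enzymes and other ATF4 targets, 0.84, 2.85, 0.79 and 0.51, stand to the right of the band, and those of all 3 synthetase lists stand left of 0.

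The arrays varied in a shared way over the 8 risen genes. P150KD replicate 1 gave the highest P150KD value for 7 of them and P150KD replicate 4 for Atf5. P150KD replicate 5 gave the lowest for 6 and P150KD replicate 4 for the other 2. Among the controls siControl replicate 3, which had the lowest 75th percentile of the processed signal (819.5, with a highest of 1304.5 on P150KD replicate 5), read lowest for 4 of the 8. Over all 32 tested ATF4 target genes P150KD replicate 1 was highest for 13 and P150KD replicate 5 lowest for 12. Among those 32 siControl replicate 3 was lowest for 16, so its low readings were not particular to the risen genes. The count of risen genes was 4 without siControl replicate 2, 5 without siControl replicate 1, 5 without siControl replicate 3, 5 without P150KD replicate 1 and 6 to 8 without any other single array.

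All arrays lay on 1 slide, where 1 column held the 3 siControl arrays with P150KD replicate 1 and the other column P150KD replicates 2 to 5. With the slide column as a block, in which P150KD replicate 1 alone is set against the controls, 2 ATF4 target genes rose: Chac1 (adjusted p = 0.0126) and Nupr1 (adjusted p = 0.0258). Over all genes 207 rose and 203 fell in that fit. From the related lists, Ddit4 and Dnajb9 were among the genes called in it. The oocyte markers also held a risen gene and the morula markers fallen genes in that fit. The further ATF4 targets then held 1 risen and 0 fallen genes, the folate and glycine enzymes 0 and 0, the other cytosolic synthetases 0 fallen and the mitochondrial ones 1, and the leukocyte markers 0 risen, and Chaf1a had an adjusted p of 0.0509 at a difference of -3.72.

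Markers of other cell types were read on the same arrays. Of 10 sperm markers 6 were tested and 0 were called by limma's adjusted p (unadjusted p under 0.05 for a higher signal in 2); their summed signal ran from 0.28 to 0.783 times the 75th percentile on siControl and from 0.412 to 2.48 on P150KD arrays, and Akap4 and Spem1 were above background on no array. Of 10 cumulus and granulosa markers 2 were tested and 0 called (unadjusted p under 0.05 in 0), with sums from 1.86 to 2.25 and from 1.60 to 2.59, and Has2, Ptgs2, Ptx3, Tnfaip6, Fshr and Inhba were above background on no array. Of 10 oocyte markers 8 were tested and Zp3 rose (12.5%, against 6.65% of all genes). Of the 8, 7 lay above 0, with limma's unadjusted p under 0.05 for a higher signal in 3. Their sums ran from 9.04 to 10.4 on siControl and from 12.3 to 22.4 on P150KD arrays. Of 10 leukocyte markers 5 were tested and 3 rose, Cd74, Coro1a and Srgn (60%, against 6.65% of all genes), while the other 2 lay below 0. The sums of this list ran from 5.17 to 16.8 on siControl and from 10.0 to 14.6 on P150KD arrays. Ptprc, Lyz2, Laptm5 and Tyrobp were above background on no array. The rise of Coro1a was not called without siControl replicate 2 or 3 (adjusted p = 0.0519 and 0.0545), nor that of Srgn without any single array other than P150KD replicate 3 (adjusted p from 0.0575 to 0.125). The part of the oocyte, leukocyte and lowered morula markers in the values of the ATF4 target genes was not tested.

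The scaling of the arrays moved the level that all genes are read against. The median over all genes was -0.24 with the 75th percentile, -0.12 with quantile normalization, -0.19 with normexp and 0.34 with scaling to 12 housekeeping genes, whose mean ran from 6.31 to 6.37 on siControl and from 5.61 to 5.92 on P150KD arrays and of which 4 fell. With quantile normalization 11 ATF4 target genes rose and 0 fell, against 7.7% and 6.48% of all genes. With the housekeeping scale 12 rose and 0 fell, against 14.8% and 2.47% of all genes. The 8 risen genes were among those called under both, joined by Atf4, Cebpg and Aars1 and, with the housekeeping scale, Cebpb.

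**Figure D5:**
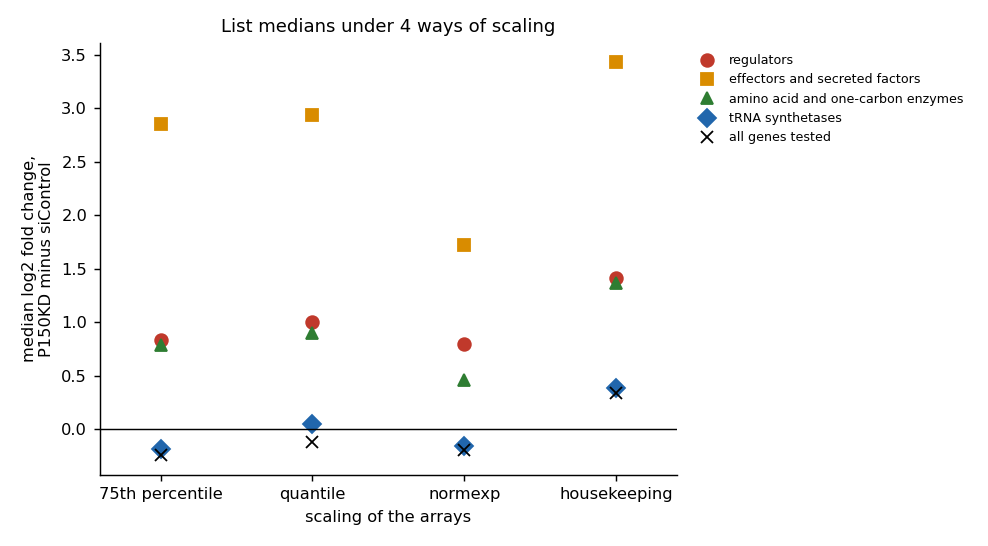
Median difference between P150KD and siControl (vertical axis, log2) of the 4 roles and of all genes tested under 4 scalings of the arrays (horizontal axis); each symbol is 1 list. The regulator median runs from 0.80 to 1.41 and stays above that of all genes, and the tRNA synthetase median runs from -0.19 to 0.39 and crosses 0.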

How the data were processed

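RNA of 3 siControl and 5 P150KD pools of 10 morulae was measured on 1-colour Agilent arrays. Per the file headers, the processed signal is an intensity that the authors obtained with Agilent Feature Extraction 10.5.1 (also in the submitters' processing notes), background-subtracted and not normalized between arrays. Spot and local background medians, used for one alternative, are raw intensity readings per the file headers, which also define the remaining columns as 0 or 1 flags. The deposited series table holds log2 values, which on comparison with the scanner files were divided by the 75th percentile and then centred per probe; it served as an alternative, and its column medians ran from -0.21 to 0.09.

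From the 55681 probes, outlier spots were dropped, spots of a probe averaged, and the 75th percentile over probes subtracted on the log2 scale. Probes well above background on at least 3 of 8 arrays were tested with limma 3.58.1 in R 4.3.3 (lmFit, eBayes). Probes were named through their RefSeq accession: 27235 received 1 of 20660 symbols. The procedure was tested on simulated data.

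The 34 genes and all lists were chosen with earlier results of these data known. By the naming rule, values on every array were printed for called genes, Atf4, Atf5, Ddit3 and genes with disagreeing probes, and up to 4 genes of each other list were named, plus the eIF2 kinases and Chaf1a; other values serve as examples. Alternatives were quantile normalization, normexp (offset 50, on median signals), scaling to housekeeping genes, the series table, 2 other filters, the replicate number and the slide column as blocks, eBayes with trend and robust, the mean of a gene's probes, and leaving out each array. Same-numbered arrays of the 2 groups deviated together by correlations of -0.014, -0.075 and -0.017, so the numbers were not taken as pairs. The number of arrays limits the precision.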

Additional observations from a re-analysis of the deposited data

Results flagged for a closer look

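On 3 of the 32 sets of 5 P150KD values, 1 array lay far from the others, and chance alone flags about 1 in 20 such groups. P150KD replicate 2 gave the lowest Ppp1r15a value, 1.30, P150KD replicate 4 the lowest Vldlr value, -7.39, where it was not well above background, and P150KD replicate 5 the lowest Psat1 value, 8.43. None of the 3 genes was called, with or without that array. Fgf21, which entered no test, was well above background on P150KD replicate 2 at -3.89 and on P150KD replicate 3 at -3.54, and on 0 of the 3 siControl arrays.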

How the results depend on the processing

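The 8 risen and 1 fallen ATF4 target genes were recounted under 18 alternatives. Chac1 and Nupr1 were called in 17 of them, all but the fit with the replicate number as a block. Normexp, the series table and the mean of a gene's probes gave 8 risen and 1 fallen, and the same 8 genes. The filter on all 8 arrays gave 9 and 1 of 29 tested, no filter 6 and 0, eBayes with trend and robust 11 and 1, quantile normalization 11 and 0, and the housekeeping scale 12 and 0. The slide column as a block gave 2 risen and 0 fallen. Leaving out 1 array at a time gave 4 to 8 risen and 0 to 1 fallen.

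With the replicate block, 0 ATF4 target genes rose and 0 fell, as did 0 of all 14601 genes; P150KD replicates 4 and 5, which have no same-numbered control, carry no weight in that fit. Any other cause was not tested, and the labels do not say that the numbers pair arrays.

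These differences changed sign, none of them called on either side. With quantile normalization the values were 0.09 for Ppp1r15a, 0.20 for Psat1, 0.12 for Phgdh, 0.02 for Eprs1, 0.08 for Gars1, 0.11 for Nars1, 0.16 for Wars1 and 0.01 for Eif2ak4. With the housekeeping scale they were 0.51 for Ppp1r15a, 0.52 for Psat1, 0.45 for Phgdh, 0.35 for Eprs1, 0.44 for Gars1, 0.30 for Iars1, 0.14 for Lars1, 0.43 for Nars1, 0.04 for Sars1, 0.07 for Tars1, 0.49 for Wars1 and 0.37 for Eif2ak4. With the slide column they were 0.09 for Ppp1r15a, 0.00 for Psat1, -0.03 for Shmt2, 0.26 for Iars1 and 0.29 for Nars1, and with the replicate block 0.03 for Psat1, -0.02 for Shmt2, -0.12 for Mars1 and 0.06 for Nars1. The mean of the Psat1 probes gave 0.31. Leaving out 1 array gave -0.22 to 0.14 for Ppp1r15a, -2.70 to 0.18 for Vldlr, -0.10 to 0.02 for Psat1, -0.07 to 0.08 for Mars1, -0.38 to 0.00 for Nars1, -0.07 to 0.16 for Eif2ak3 and -0.45 to 0.19 for Eif2ak4. Apart from the shift of all genes given with the scalings, the cause was not tested. Signal near background limits Stc2, Vldlr, Aldh18a1, Fgf21 and the kinase gene Eif2ak2.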
